A study of Arabidopsis thaliana with 12 samples.

Results

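The phosphate homeostasis genes described here are 9 Arabidopsis genes, picked by locus code out of the 27827 genes that each have 1 probe set on the array, and a probe set was found for all 9. They are the ubiquitin-conjugating enzyme gene PHO2 (AT2G33770) and the ubiquitin ligase gene NLA (AT1G02860), the SPX domain genes SPX1 (AT5G20150), SPX2 (AT2G26660) and SPX3 (AT2G45130), the phosphate transporter genes PHT1;1 (AT5G43350) and PHT1;4 (AT2G38940), the MYB transcription factor gene PHR1 (AT4G28610) and the sulfolipid synthase gene SQD2 (AT5G01220). The study asked how a shortage of miRNAs alters the response of leaves to starvation caused by darkness. It measured RNA in 12 leaf samples, 3 biological replicates in each of 4 groups, namely dcl1-9 in the dark, dcl1-9 in light, WT in the dark and WT in light. All plants were 4 to 5 weeks old and grown under 12 h of light per day, and leaves 5 to 7 were detached, floated on water and kept for 6 h in darkness or in light, starting 2 h after the lights came on. WT is Col-0, and dcl1-9 carries a T-DNA in DCL1, the gene of the RNase III enzyme that cuts miRNAs out of their precursors. The allele is a partial loss of function that came from the ecotype Wassilewskija and was backcrossed repeatedly to Col-0, its homozygotes being recognized by their phenotype among the progeny of heterozygous plants.

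Plants short of phosphate switch on uptake and recycling through PHR1, a factor that binds the promoters of many phosphate starvation genes. SPX proteins sense the phosphate status through inositol pyrophosphates and hold PHR1 back when phosphate is plentiful, while PHO2 and NLA mark PHT1 transporters and their partners for destruction. Both of these brakes are themselves targets of miRNAs, PHO2 of miR399 and NLA of miR827, and SQD2 makes the sulfolipid that can take the place of phospholipids in membranes.

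Intensities are given on the linear scale as the dChip model-based index of each probe set, and they are set against each other between samples of the same gene only. A gene was counted as changed where limma gave an adjusted p under 0.05 over all 27827 probe sets, and log2 differences carry the standard error (SE) of that fit. The array medians lay between 29.96 and 34.54, and the median coefficient of variation among the 3 arrays of a group was 14.7% to 17.1%. SPX3 and PHT1;1 had a mean under 20, as did 34.8% of all probe sets. The probe set of DCL1 itself read 61.1 ± 8.45 in dcl1-9 dark and 42.2 ± 5.91 in dcl1-9 light, against 23.7 ± 2.70 in WT dark and 20.0 ± 2.48 in WT light (SD, n = 3 each). It was therefore higher in the mutant by 1.36 in the dark (adjusted p = 0.000931) and 1.08 in light (adjusted p = 0.00392) on the log2 scale, and since it is not known here on which side of the T-DNA the probes lie, it does not check the labels.

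Darkness changed 4 of the 9 genes in dcl1-9 and 5 in the WT, where 23.7% and 27.4% of all probe sets were called. NLA was higher in the dark in both genotypes, SPX1, PHT1;4 and SQD2 were lower in the dark in both, and PHO2 was higher in the dark in the WT alone by this count. The genotypes differed for PHO2 and SPX1 in light, both higher in dcl1-9, and for NLA in the dark, which was lower in dcl1-9. Of all probe sets, 9.25% were called between genotypes in light and 7.46% in the dark.

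**Figure D1:**
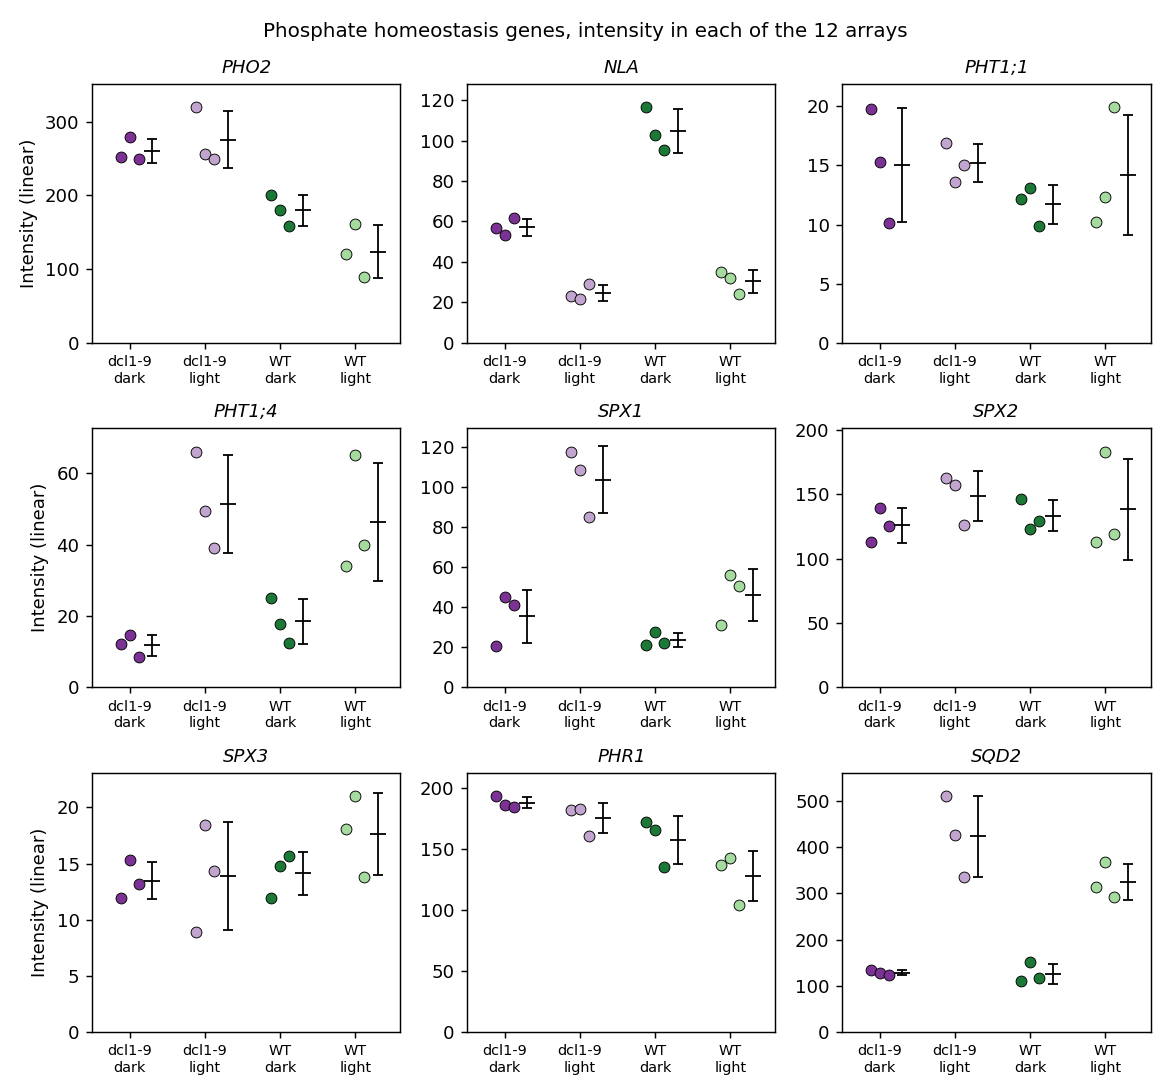
Intensity (linear scale, from 0) of the 9 genes in each of the 12 arrays, with the 4 groups side by side, points for arrays and a bar for the mean with its SD (n = 3). All 6 dcl1-9 arrays of PHO2 lie above all 6 WT arrays, and SQD2, NLA and PHT1;4 separate dark from light in both genotypes.

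Of the transporter turnover genes, PHO2 was the one whose arrays set the genotypes apart in both conditions. Its intensity was 252, 279 and 250.1 in dcl1-9 dark and 319.7, 257 and 249.5 in dcl1-9 light. In the WT it was 201, 180.5 and 158 in the dark and 120.9, 161 and 89.0 in light. All 6 arrays of the mutant were above all 6 of the WT, the mutant's dark and light arrays overlapped, and 1 WT light array reached into the range of the WT dark arrays. In light PHO2 was 2.28-fold higher in the mutant (log2 difference 1.19, SE 0.19, adjusted p = 0.0032). In the dark it was 1.45-fold higher with no overlap between the arrays, but the difference did not pass the test (log2 difference 0.54, SE 0.19, adjusted p = 0.0999). It did pass with median centring (adjusted p = 0.0461), with the dark arrays alone (0.0438), with the replicate number as a block (0.0362) and without WT light replicate 3 (0.0486). It also passed by the study's own criterion (a fold-change whose 90% lower bound exceeds 1.2).

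The dark response of PHO2 in dcl1-9 was a log2 difference of -0.07 (SE 0.19, 95% interval -0.49 to 0.34, adjusted p = 0.841). In the WT it was 0.57 (SE 0.19, adjusted p = 0.0389), a 1.49-fold rise. The difference between the responses was -0.65 (SE 0.27, unadjusted p = 0.0328), which did not pass after adjustment (adjusted p = 0.796). The rise in the WT was lost when any 1 of 6 arrays was left out: WT light replicate 3 (adjusted p = 0.173, log2 difference 0.36), WT dark replicates 1 and 2 (0.134 and 0.0878), WT light replicate 1 (0.0884) and dcl1-9 dark replicates 1 and 2 (0.0523 and 0.05). It was also lost without the intensity trend (adjusted p = 0.061) and with the WT arrays alone (adjusted p = 0.0912).

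NLA rose in the dark in both genotypes. Its arrays read 56.8, 53.2 and 61.6 in dcl1-9 dark and 23.1, 21.6 and 28.9 in dcl1-9 light. In WT dark they read 117, 103 and 95.2, and in WT light 35.0, 32.1 and 24.1. Dark and light arrays stood apart in each genotype, and WT dark stood above every other group. NLA was 2.35-fold higher in the dark in dcl1-9 (log2 difference 1.23, SE 0.18, adjusted p = 0.000167) and 3.48-fold higher in the WT (1.80, SE 0.18, adjusted p = 4.11e-06).

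In the dark NLA was 1.83-fold lower in dcl1-9 than in the WT (log2 difference -0.87, SE 0.18, adjusted p = 0.0126), and in light the arrays of the genotypes overlapped (-0.30, SE 0.18, adjusted p = 0.287). The responses to darkness differed by -0.57 (SE 0.26, unadjusted p = 0.0453, adjusted p = 0.851). Leaving out dcl1-9 dark replicate 1 or 2 ended the call between genotypes in the dark, with adjusted p = 0.0635 and 0.0574. In the dark PHO2 and NLA, which both act on PHT1 transporters, thus had opposite orders of the genotypes. The mutant was above the WT for PHO2, where the difference did not pass (adjusted p = 0.0999), and below it for NLA.

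Of the 3 SPX members, SPX1 passed the test in 3 comparisons and SPX2 and SPX3 in none. It encodes a nuclear inhibitor of PHR1 and is itself a classic marker of phosphate starvation. In dcl1-9 it read 20.4, 44.9 and 41.1 in the dark and 118, 108 and 85.1 in light. In the WT it read 21.1, 27.8 and 22.1 in the dark and 31.1, 55.9 and 50.7 in light. The 3 dcl1-9 light arrays were above the other 9, and dcl1-9 dark replicate 1 lay below the WT dark arrays while the other 2 lay above them.

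SPX1 fell in the dark 3.07-fold in dcl1-9 (log2 difference -1.62, SE 0.29, adjusted p = 0.00077) and 1.90-fold in the WT (-0.92, SE 0.29, adjusted p = 0.0272). In light it was 2.31-fold higher in the mutant (log2 difference 1.21, SE 0.29, adjusted p = 0.0212). In the dark the genotype difference was 0.51 with overlapping arrays (SE 0.29, adjusted p = 0.276), and the responses differed by -0.70 (SE 0.41, adjusted p = 0.968). The WT response was lost without WT dark replicate 1 or 3 (adjusted p = 0.0895 and 0.0775) or WT light replicate 2 or 3 (0.0994 and 0.0851). The genotype difference in light was lost without dcl1-9 light replicate 1 or 2 (adjusted p = 0.0641 and 0.0712) or WT light replicate 1 or 3 (0.077 and 0.0522).

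SPX2, a close relative of SPX1 with an overlapping role, did not pass in any comparison. Its arrays ranged over 113 to 139 in dcl1-9 dark, 126 to 163 in dcl1-9 light, 123 to 147 in WT dark and 113 to 183 in WT light, and every group overlapped every other. The log2 difference of dark over light was -0.24 in dcl1-9 (95% interval -0.64 to 0.17) and -0.02 in the WT (-0.43 to 0.38). SPX3, a further SPX gene induced by phosphate starvation, was dim, with all 12 arrays between 8.91 and 21, and its 5 log2 differences lay between -0.38 and 0.32. None of them passed, the 95% interval of the dark response being -0.55 to 0.57 in dcl1-9 and -0.87 to 0.25 in the WT.

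**Figure D2:**
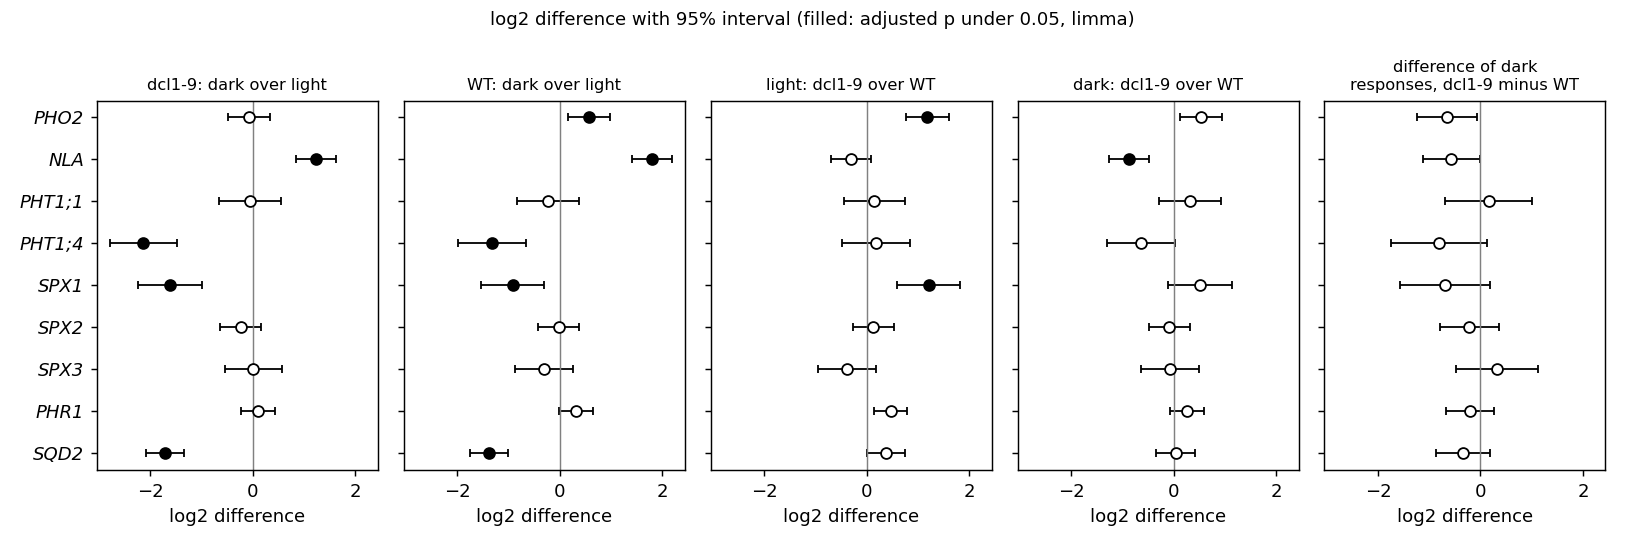
Log2 difference of the 9 genes in the 5 comparisons, with 95% intervals from limma across 12 arrays, filled points marking an adjusted p under 0.05. NLA is to the right and SPX1, PHT1;4 and SQD2 to the left of 0 in both dark responses, PHO2 is open in dcl1-9 and filled in the WT, and no point is filled for the difference of the responses.

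PHT1;4, a proton-coupled phosphate transporter of the plasma membrane known mainly from roots, was among the genes with the widest span between group means, 2.14 on the log2 scale. Its intensity was 12.2, 14.5 and 8.49 in dcl1-9 dark and 66.1, 49.3 and 39.0 in dcl1-9 light. In the WT it was 25.2, 17.7 and 12.6 in the dark and 34.0, 65.1 and 39.9 in light. All 6 light arrays were above all 6 dark arrays, and the genotypes overlapped in both conditions. The fall in the dark was 4.39-fold in dcl1-9 (log2 difference -2.14, SE 0.31, adjusted p = 0.000129) and 2.51-fold in the WT (-1.33, SE 0.31, adjusted p = 0.00442). The dcl1-9 dark arrays were all under 20, so the size of that fold rests on dim readings. Over the alternatives the log2 difference ranged from -2.32 to -1.27 in dcl1-9 and from -1.58 to -0.84 in the WT, and the calls held.

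Neither genotype difference of PHT1;4 passed, with -0.63 in the dark (SE 0.31, adjusted p = 0.21) and 0.18 in light (SE 0.31, adjusted p = 0.725). The responses differed by -0.81 (SE 0.44, 95% interval -1.74 to 0.13, adjusted p = 0.938). PHT1;1, the main phosphate importer of the family, was dim, with arrays of 10.1 to 19.8 in dcl1-9 dark, 13.6 to 16.9 in dcl1-9 light, 9.90 to 13.1 in WT dark and 10.2 to 19.9 in WT light. The arrays overlapped between dark and light in each genotype and between genotypes in each condition, and no comparison passed. PHT1;1 has a near-identical copy in PHT1;2, which averaged 11.6 ± 1.28 in dcl1-9 dark, 11.04 ± 0.304 in dcl1-9 light, 16.2 ± 1.05 in WT dark and 15.8 ± 4.13 in WT light (SD, n = 3 each), so the reading of either probe set may hold RNA of both genes.

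PHR1, the activator of phosphate starvation genes, did not pass in any comparison. It read 193, 186 and 184 in dcl1-9 dark and 181, 183 and 161 in dcl1-9 light. The WT arrays read 172, 165 and 135 in the dark and 136, 142 and 104 in light. In each condition all mutant arrays were above all WT arrays, yet the log2 difference of 0.47 in light (SE 0.15, adjusted p = 0.071) and of 0.26 in the dark (SE 0.15, adjusted p = 0.297) did not pass. The dark response was 0.10 in dcl1-9, with the arrays apart (adjusted p = 0.698), and 0.31 in the WT, with overlap (adjusted p = 0.169). The difference in light passed with median centring of the arrays (adjusted p = 0.0431) and with the replicate number as a block (0.0185).

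SQD2 encodes the enzyme that joins sulfoquinovose to diacylglycerol in the last step of sulfolipid synthesis, and it fell in the dark in both genotypes. Its intensity was 133, 128 and 122 in dcl1-9 dark and 511, 427 and 335 in dcl1-9 light. In the WT it was 110.2, 151 and 116 in the dark and 314, 368 and 292 in light. Every light array exceeded every dark array, while the genotypes overlapped in both conditions. SQD2 fell in the dark 3.27-fold in dcl1-9 (log2 difference -1.71, SE 0.17, adjusted p = 5.53e-06) and 2.60-fold in the WT (-1.38, SE 0.17, adjusted p = 3.03e-05). Between the genotypes the log2 difference was 0.04 in the dark (SE 0.17, adjusted p = 0.908) and 0.37 in light (SE 0.17, adjusted p = 0.18).

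The counts over the 9 genes stand beside the share of all probe sets called in the same comparison. In dcl1-9 darkness changed 4 of 9 (1 higher, 3 lower) where 23.7% of all probe sets were called, 10.8% higher and 12.9% lower. In the WT it changed 5 of 9 (2 higher, 3 lower) where 27.4% were called, 12.8% higher and 14.5% lower. The arrays of dark and light did not overlap for 5 members in dcl1-9 (2 higher, 3 lower), against 19.7% and 19.6% of all probe sets in these directions. In the WT they did not overlap for 4 members (1 higher, 3 lower), against 19.4% and 18.3%.

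Between genotypes the counts were lower. In light 2 of 9 were called, both higher in dcl1-9, where 9.25% of all probe sets were called (5.92% higher, 3.33% lower). In the dark 1 of 9 was called, lower in dcl1-9, where 7.46% were called (4.45% higher, 3.02% lower). Without overlap there were 3 members higher and 0 lower in light (13.2% and 19.4% of all probe sets), and 2 higher and 1 lower in the dark (13% and 19.2%). For the difference of the responses limma called 0 of 9, where 0.104% of all probe sets were called (0.0144% higher, 0.0898% lower), and 2 of 9, PHO2 and NLA, had an unadjusted p under 0.05, as did 5.73% of all probe sets.

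The median of all probe sets was itself below 0 in the genotype comparisons, at -0.12 in the dark and -0.14 in light on the log2 scale. Relative to it, PHO2 stood at 0.66 in the dark and 1.32 in light, SPX1 at 0.63 and 1.35, PHR1 at 0.38 and 0.60, and NLA at -0.75 and -0.16, with the tests above belonging to the unshifted differences. The median over the 9 members was 0.04 in the dark and 0.18 in light. For the dark responses the median over the members was -0.07 in dcl1-9 and -0.22 in the WT, where that over all probe sets was 0.06 in both.

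The members fell into different orders across the 4 groups. PHO2 and PHR1 had both dcl1-9 groups on top, and their log2 intensities followed each other over the 12 arrays with a Pearson r of 0.93, or 0.833 after each group's mean was taken off. PHT1;4 and SQD2 rose and fell together with light (r = 0.907, 0.48 within groups), and NLA ran against SQD2 (r = -0.903, -0.227 within groups) and SPX1 (r = -0.839, -0.39 within groups). These are descriptions over 12 arrays that share the 4 groups and their normalization. They are 4 of the 36 pairs among the 9 genes. Other pairs came near 0.833 within groups: PHO2 with SPX2 (0.761), SPX2 with PHT1;4 (0.753) and PHO2 with PHT1;4 (0.734). The lowest r within groups was -0.498, for NLA with PHT1;1.

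**Figure D3:**
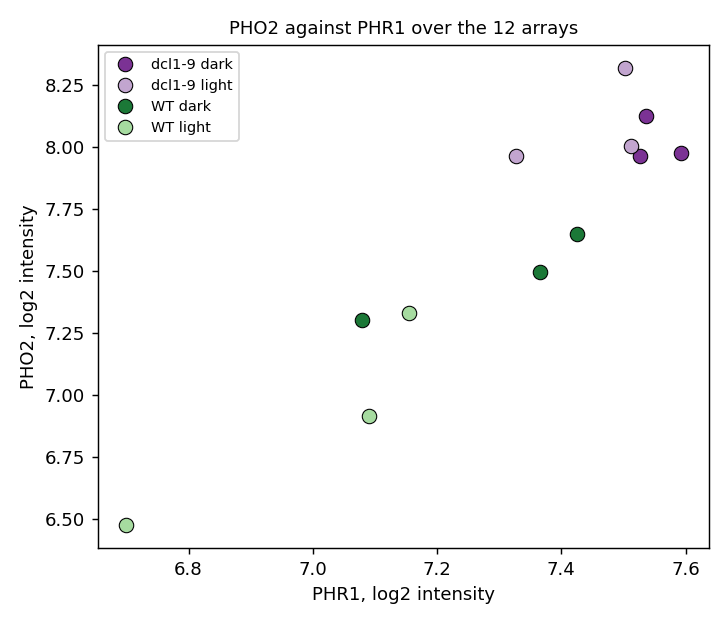
Log2 intensity of PHO2 (vertical) against that of PHR1 (horizontal), 1 point for each of the 12 arrays, colored by group. All 6 dcl1-9 arrays lie above all 6 WT arrays on the vertical axis and overlap the WT dark arrays on the horizontal axis, and the WT dark and light arrays overlap on both (r = 0.93 over 12 arrays).

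Other genes with like patterns were looked up for the 3 members with the widest span of group means, PHT1;4, SPX1 and NLA. They were picked by their r over these same arrays, so a like order of the groups follows from the choice. Over the 12 arrays and 18082 probe sets with a mean of 20 or more, the patterns most like that of NLA were those of ECT9 (r = 0.985), At1g07128 (r = 0.984) and the cytokinin oxidase gene CKX5 (r = 0.983). CKX5 averaged 32.8 in dcl1-9 dark, 7.90 in dcl1-9 light, 111 in WT dark and 8.44 in WT light, the same order of the dark groups as NLA. For SPX1 they were At3g25290 (r = 0.95), RLK1 (r = 0.924) and the NF-Y subunit gene NF-YA10 (r = 0.919), whose mean was 25.0 in dcl1-9 dark, 76.3 in dcl1-9 light, 19.5 in WT dark and 42.0 in WT light.

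For PHT1;4 the closest patterns were those of GBF6 (At4g34590), a bZIP factor gene whose translation is controlled by sucrose, and of At4g34588 (both r = 0.97), followed by the ferrochelatase gene FC1 (r = 0.965). The values of GBF6 and At4g34588 are identical in every array, so they count as 1 reading. GBF6 averaged 132 in dcl1-9 dark, 1040 in dcl1-9 light, 275 in WT dark and 1187 in WT light. As with PHT1;4, both light groups lay above both dark groups.

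A list of 61 other genes of phosphate transport, sensing and recycling was read from the same fit, of which 20 had a mean under 20. In dcl1-9 darkness changed 17 of 61, or 27.9% (5 higher, 12 lower), where 23.7% of all probe sets were called. Of the same 61, darkness changed 22 in the WT, or 36.1% (10 higher, 12 lower), where 27.4% were called. Of these, 5 were higher and 11 lower in both genotypes, 1 was called in dcl1-9 only, 6 in the WT only, and 0 moved in opposite directions. The difference of the responses was called for 0 of 61 by limma, with 2 at an unadjusted p under 0.05, so a call in only 1 genotype does not show a difference between them.

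**Figure D4:**
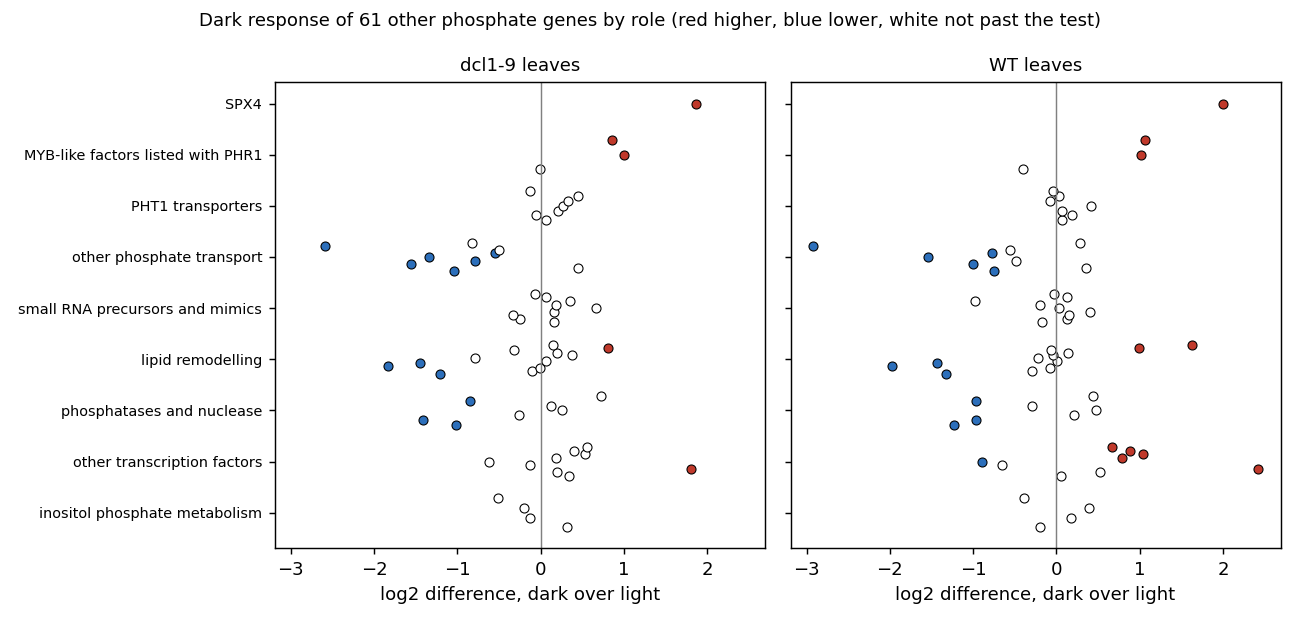
Log2 difference of dark over light for 61 other phosphate genes, grouped by role, in dcl1-9 leaves (left) and WT leaves (right), red for higher, blue for lower and white for genes that did not pass. In the transport group 6 of 9 are lower in dcl1-9 and 5 of 9 in the WT, beside 12.9% and 14.5% of all probe sets. No PHT1 transporter is called in either.

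Of the 5 genes higher in the dark in both genotypes, 4 were listed under sensing or transcription and 1 under lipid remodelling. SPX4, a further SPX protein, averaged 276 ± 45.7 in dcl1-9 dark and 75.5 ± 1.55 in dcl1-9 light (SD, n = 3 each), with 253 ± 11.9 in WT dark and 64.3 ± 12.8 in WT light. It was therefore higher in the dark in dcl1-9 (log2 difference 1.86, SE 0.17, adjusted p = 1.58e-06) and in the WT (1.99, SE 0.17, adjusted p = 6.44e-07), the opposite direction to SPX1. WRKY45, a factor that activates PHT1;1, was higher in the dark by 1.81 in dcl1-9 (adjusted p = 1.71e-05) and 2.42 in the WT (adjusted p = 8.25e-07). The MYB-like loci At3g24120 and At4g13640 (UNE16) rose by 1.00 and 0.85 in dcl1-9 and by 1.02 and 1.06 in the WT, and were named after their values were seen, as was the phosphatidate phosphatase gene PAH2 (0.80 and 0.99). PHL1, the closest relative of PHR1, did not pass, with -0.01 in dcl1-9 and -0.40 in the WT.

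Of 9 other transcription factor genes, 1 was higher and 0 lower in the dark in dcl1-9 (10.8% and 12.9% of all probe sets), and 5 were higher and 1 lower in the WT (12.8% and 14.5%). For the difference of the responses limma called 0 of these 9, with 0 at an unadjusted p under 0.05. Of 4 loci listed for inositol phosphate metabolism, 0 passed in either response by limma, 1 having an unadjusted p under 0.05 in dcl1-9 and 0 in the WT.

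Among 9 transport genes outside the PHT1 family, 6 were lower in the dark in dcl1-9, where 12.9% of all probe sets were lower, and 5 in the WT, where 14.5% were lower. None of the 9 was called higher in either. PHT4;1, a phosphate transporter of the thylakoid, averaged 30.2 ± 1.84 in dcl1-9 dark and 182 ± 23.2 in dcl1-9 light, with 25.0 ± 5.30 in WT dark and 187 ± 7.41 in WT light (SD, n = 3 each). Its log2 difference was -2.58 in dcl1-9 (adjusted p = 1.29e-07) and -2.92 in the WT (adjusted p = 3.4e-08).

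PHT2;1, of the chloroplast envelope, fell by 1.34 in dcl1-9 and 1.54 in the WT, and PHO1;H1, a relative of the xylem-loading exporter PHO1, fell by 1.56 and 1.00 on the log2 scale. At1g63010, annotated as a transporter with an SPX domain, fell in dcl1-9 by 0.79 (adjusted p = 0.0105) and did not pass in the WT (-0.49, adjusted p = 0.0975). PHO1 itself did not pass, with 0.45 in dcl1-9 (adjusted p = 0.1) and 0.35 in the WT (adjusted p = 0.195). None of the 7 other PHT1 genes passed in either response by limma, 1 having an unadjusted p under 0.05 in each.

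Of 12 lipid remodelling genes, 1 was higher and 3 lower in the dark in dcl1-9 (10.8% and 12.9% of all probe sets). In the WT 2 were higher and 3 lower (12.8% and 14.5%). MGD3 and DGD1, which make galactolipids, fell in the dark, MGD3 by 1.84 in dcl1-9 and 1.98 in the WT and DGD1 by 1.44 and 1.43 on the log2 scale. The light arrays of MGD3 spread widely, with 67.3, 22.0 and 16.7 in dcl1-9 and 29.3, 83.1 and 34.5 in the WT, though all were above the dark arrays.

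GDPD1, a glycerophosphodiester phosphodiesterase gene of phospholipid breakdown, averaged 399.9 ± 128 in dcl1-9 dark, 351 ± 56.3 in dcl1-9 light, 466 ± 171 in WT dark and 157 ± 74.2 in WT light (SD, n = 3 each). Its log2 difference of dark over light was 0.15 in dcl1-9 (SE 0.34, adjusted p = 0.815) and 1.63 in the WT (SE 0.34, adjusted p = 0.002), and the difference between these responses did not pass (-1.48, SE 0.48, unadjusted p = 0.00784, adjusted p = 0.511). In light GDPD1 was higher in the mutant (1.27, SE 0.34, adjusted p = 0.0336). All 3 WT light arrays (85.9 to 234) lay below the other 9 (257 to 655).

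Of 7 phosphatase and nuclease genes, 3 were lower in the dark in each genotype (12.9% of all probe sets in dcl1-9, 14.5% in the WT) and none was higher. PAP10, a purple acid phosphatase, fell by 1.41 in dcl1-9 and 0.96 in the WT on the log2 scale.

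Between genotypes the list gave 4 of 61 calls in the dark (3 higher, 1 lower in dcl1-9) and 4 of 61 in light (3 higher, 1 lower), beside 7.46% and 9.25% of all probe sets. RNS1, a secreted ribonuclease that recycles phosphate from RNA, was called in both. It read 157, 148 and 175 in dcl1-9 dark and 146, 119 and 179 in dcl1-9 light, against 41.2, 64.1 and 42.5 in WT dark and 62.5, 53.4 and 62.6 in WT light. All mutant arrays were above all WT arrays, by a log2 difference of 1.73 in the dark (SE 0.20, adjusted p = 0.000279) and 1.30 in light (SE 0.20, adjusted p = 0.00229).

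In the dark WRKY75, a factor of the phosphate starvation response (0.98, adjusted p = 0.0149), and At3g01310 (0.82, adjusted p = 0.0221) were higher in dcl1-9, and HRS1, a MYB-like factor, was lower (-0.79, adjusted p = 0.0322). In light the acid phosphatase gene PAP12 was higher (0.88, adjusted p = 0.00562) and the transporter gene PHT1;7 lower (-0.85, adjusted p = 0.0227). WRKY75 and HRS1 had means under 20. Without probe sets of such means 2 of the 41 remaining genes were called in the dark.

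The miRNAs that act on PHO2 and NLA could be followed only through their precursors. The 7 probe sets of MIR399A to MIR399F and MIR827 read between 3.23 and 55.0 over all arrays, with means of 4.83 to 24.4, and gave 0 calls by limma in the 5 comparisons. The lowest adjusted p was 0.0653, for MIR827 in the WT dark response (unadjusted p = 0.0191), whose mean was 7.88 ± 3.10 in dcl1-9 dark and 6.02 ± 1.70 in dcl1-9 light, with 4.43 ± 1.55 in WT dark and 8.74 ± 2.86 in WT light (SD, n = 3 each). MIR399D averaged 15.1 ± 4.71 in dcl1-9 dark and 23.2 ± 2.69 in WT dark (unadjusted p = 0.019, adjusted p = 0.116). By the study's criterion MIR399E alone passed, as higher in dcl1-9 dark (22.4 to 28.3) than in dcl1-9 light (14.3 to 17.6). By limma that log2 difference was 0.67 (SE 0.42, adjusted p = 0.304). These readings are of precursor transcripts near the lower end of the scale, and mature miR399 and miR827 were not measured on the array.

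The non-coding RNAs IPS1 and AT4, which act as decoys of miR399, read 6.31 to 9.81 and 18.5 to 34.6 over all arrays. Neither passed in any comparison. AT4 averaged 27.4 ± 7.19 in dcl1-9 dark, 28.3 ± 4.33 in dcl1-9 light, 20.4 ± 1.01 in WT dark and 21.04 ± 4.04 in WT light (SD, n = 3 each).

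Marker genes of cell types were read from the same fit. There darkness changed 23.7% of all probe sets in dcl1-9 and 27.4% in the WT, and 9.25% differed between genotypes in light. The summed intensity of 4 mesophyll genes (RBCS1A, RCA, CAB1 and CA1) was 5531 to 5905 in dcl1-9 dark and 6124 to 7318 in dcl1-9 light, with 4385 to 5194 in WT dark and 5928 to 7257 in WT light. Of the 4, 1 was lower in the dark in dcl1-9 and 3 in the WT. Of 3 guard cell genes, none passed between dark and light in dcl1-9, while in the WT KAT1 was lower and MYB60 and FAMA were higher in the dark, and in light MYB60 was higher in dcl1-9. The list summed to 238 to 319.9 in dcl1-9 dark, 292 to 511 in dcl1-9 light, 165 to 238 in WT dark and 163 to 307 in WT light.

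The 2 phloem companion cell genes SUC2 and APL summed to 249 to 360.4 in dcl1-9 dark, 242 to 437 in dcl1-9 light, 321 to 378 in WT dark and 220.4 to 299 in WT light, and neither passed in any comparison. Root genes (CASP1, COBL9 and EXPA7) had sums of 43.3 to 125. COBL9 was dim, with group means of 11.3 to 15.2, while EXPA7 read up to 82.0 in dcl1-9 dark and was higher there than in dcl1-9 light. The part of these markers in the changes of the phosphate genes was not tested. In whole leaves, fewer cells of a type and less RNA per cell cannot be told apart.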

How the data were processed

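RNA of 12 leaf samples was hybridized by the authors to Affymetrix Arabidopsis Gene 1.1 ST arrays, which were checked in Expression Console (version not given in the sources used here). The deposited values are linear intensities: the authors made them in dChip with invariant-set normalization to a baseline array of median intensity, a perfect-match-only model and Brainarray's custom definition, version 15, with a single probe set for each gene. Such normalization assumes that many probes do not change, and background correction and probe summaries could not be redone from these values. A deposited table also holds group means with standard errors and fold-changes with their bounds. The fold-change and bound columns are the authors' comparisons and were not used, and the number of measured sample columns set aside was 0.

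Values under 1 were set to 1, log2 was taken, and limma fitted the 4 group means to the 12 arrays for 27827 unfiltered probe sets (limma 3.58.1, R 4.3.3), with the intensity trend, 8 residual degrees of freedom and Benjamini-Hochberg adjustment at 0.05. Contrasts were dark over light in each genotype, dcl1-9 over WT in each condition, and the difference of the dark responses. Figures were drawn with matplotlib 3.10.9. Genes were followed by locus code. All 82 listed loci are in RefSeq, which holds the names of 75, and the other loci are given by code.

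The members, the list of 61 other phosphate genes and the 12 marker genes were chosen with earlier results of these data known, so their counts are descriptions. By rule the text names all 9 members, SPX4, PHL1, PHO1, At1g63010, IPS1, AT4, the MIR399 and MIR827 precursors, up to 6 further called list genes with the largest change per comparison, the 3 closest patterns of the 3 members with the widest span (Pearson r of log2 intensity, mean of 20 or more) and DCL1. When tested on simulated data drawn with the arrays' own spread for 27827 genes, WT dark against light called 55% of 100 genes shifted by a log2 of 1 and 94% of 100 shifted by 2, with 5 false calls. For the difference of the responses it called 18% and 72%, with 3 false calls. The number of arrays limits the precision. Alternatives were median centring, quantile normalization, log2(value + 16), dropping means under 20, no intensity trend, the compared arrays alone, the replicate number as a block, each array left out in turn, and the study's criterion (90% lower bound of the fold-change above 1.2), recomputed with a normal quantile of 1.645 from the deposited means and standard errors.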

Additional observations from a re-analysis of the deposited data

How the results depend on the processing

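Of the 45 log2 differences of the 9 genes, 12 were called, and 8 of these held in every alternative. The other 4 (PHO2 and SPX1 in the WT response, SPX1 between genotypes in light, NLA between genotypes in the dark) were lost under settings given with them. Of the 33 that were not called, 31 were never called. The exceptions were PHR1 between genotypes in light, called with median centring (adjusted p = 0.0431) and the replicate block (0.0185), and PHO2 between genotypes in the dark, called with median centring (0.0461), the compared arrays alone (0.0438), the replicate block (0.0362), without WT light replicate 3 (0.0486) and by the study's criterion. That criterion did not pass PHO2 in the WT response.

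Members called between genotypes in the dark numbered 2 with median centring, the compared arrays alone, the replicate block and the study's criterion, against 1. List genes called between genotypes in light numbered 7 with median centring, 2 with the compared arrays alone and 10 with the replicate block, against 4, and in the dark 2 without means under 20 and 7 with the replicate block, against 4. Probe sets called between genotypes in light numbered 1368 with the compared arrays alone and 5066 with the replicate block, against 2573, and in the dark 4338 with the replicate block and 3290 by the study's criterion, against 2077. Median centring gave 2043 higher and 711 lower there, against 1238 and 839. For the difference of the responses 66 were called with log2(value + 16), 15 without the trend and 77 with the replicate block, against 29. The causes were not tested.

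Same-numbered arrays deviated together with r of 0.058 to 0.515 over 18141 probe sets, 15 of 18 pairs being over 0.1 and 11 of 12 arrays correlating best with their own number. The other pairs had r of 0.1 or less. In the deposited table the column names of every group carry the same set of numbers. The paper's principal component analysis gave an axis to the distance between its independent biological replicates. No label says what the replicate numbers mark, so pairing was neither established nor excluded. If same-numbered arrays belong together, the main fit leaves their shared variation in its error. The replicate block is given as an alternative only, and it changed no call of the 9 genes other than those named.

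Leaving out 1 array gave 4 members called in the dcl1-9 response, 3 to 5 in the WT response, 0 to 2 between genotypes in the dark, 1 to 2 in light and 0 for the difference. List genes numbered 16 to 20, 19 to 23, 1 to 6, 2 to 9 and 0 in the same order, and probe sets 5279 to 6872, 6274 to 7817, 441 to 2518, 775 to 2995 and 8 to 39.

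Signs turned in 10 of the 45, 0 of them called. SPX3 became -0.0095 in the dcl1-9 response with log2(value + 16) and -0.055 with quantile normalization, and between genotypes in the dark 0.17 with quantile normalization and 0.012 with median centring, where SQD2 became -0.031 with quantile normalization. With 1 array left out, the values in the dcl1-9 response spanned -0.14 to 0.04 for PHO2, -0.28 to 0.25 for SPX3 and -0.28 to 0.20 for PHT1;1. In the WT response they spanned -0.15 to 0.20 for SPX2 and -0.43 to 0.0503 for PHT1;1. Between genotypes they spanned -0.18 to 0.018 for SPX3 and -0.0495 to 0.18 for SQD2 in the dark, and -0.022 to 0.45 for PHT1;4 and -0.053 to 0.43 for PHT1;1 in light. For the difference of the responses PHT1;1 spanned -0.11 to 0.43.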
